A study of Mus musculus with 9 samples.

Results

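Ebf3-positive glycinergic amacrine cells of the mouse retina were examined by single-cell RNA sequencing. The cells were chosen by their measured UMIs (unique molecular identifiers, each standing for 1 captured RNA molecule). A cell was counted when at least 2 of the amacrine genes *Pax6*, *Tfap2a* and *Tfap2b* had 1 or more UMIs, when *Ebf3* had 2 or more UMIs, and when *Slc6a9* had 1 or more UMI and more than *Gad1* and *Gad2* together. In all, 143 of 31089 cells met this rule. They came from the retinas of 4 control mice, numbered 1 to 4, and 5 double knockout (dKO) mice, numbered 5 to 9. By the labels, every mouse was RPE65-ERT2-Cre.miR-211fl.miR-204fl, so the control mice held the same Cre and floxed alleles. The control mice had been injected with corn oil and the dKO mice with tamoxifen in corn oil at 75 mg/kg, on 5 days from postnatal day 28. By the paper, the cells were studied 6 months after this induction. The Cre is driven by the RPE65 promoter, which is active in the retinal pigment epithelium (RPE), so that amacrine cells were not themselves the target of the deletion. Neither *Mir204* nor *Mir211* is a gene of the deposited matrix, and the deletion could not be checked in these cells. Both retinas of a mouse made up 1 sample. The labels give dKO mice 6 and 7 the same animal number. They were taken as different mice, and results with both summed to 1 sample are given beside the tests.

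Amacrine cells are inhibitory interneurons of the inner retina that contact bipolar, ganglion and other amacrine cells. Most use either GABA, made by the enzymes encoded by *Gad1* and *Gad2*, or glycine, which is taken up by the transporter GlyT1, the product of *Slc6a9*. *Ebf3* encodes an EBF transcription factor and is used as a marker of a part of the glycinergic amacrine cells. *Esr1* encodes oestrogen receptor alpha and *Lgr5* a receptor for R-spondins, secreted proteins that strengthen Wnt signalling, and both genes had been given as markers of these cells together with *Ebf3* and *Slc6a9*.

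Between 15079143 and 66528160 UMIs were counted per mouse, with a median of 7709 UMIs per cell over all cells. No cell barcode was shared by mice. Libraries of 3 mice stood apart. The median cell held 4775 UMIs in control mouse 4, 4863 in dKO mouse 5 and 5412.5 in dKO mouse 7, while the other 6 mice lay between 8118 and 10340. They held 67, 112 and 321 amacrine cells by the *Pax6*, *Tfap2a* and *Tfap2b* condition, and the other mice 471 to 757. *Xist*, the RNA of the inactive X chromosome, reached 30.4 to 41.7 counts per 1000000 UMIs (CPM) in their amacrine cells and 1391 to 1563 CPM in those of the other mice. The mice that share an animal number thus differed, with 1391 CPM in dKO mouse 6 and 31.8 CPM in dKO mouse 7. Shares and dKO comparisons are given with and without them.

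The 143 cells were found in 8 of 9 mice. Control mice 1 to 4 held 26, 18, 12 and 0 of them, and dKO mice 5 to 9 held 4, 29, 22, 19 and 13. They were among the deeper cells of the series, with a median of 25743 UMIs and a range from 2562 to 292866, and 41 of them were in the top 5% of all cells by UMIs. For comparison, 943 other glycinergic amacrine cells (the same *Slc6a9* condition with *Ebf3* at 0) had a median of 21362 UMIs. A class of 1806 GABAergic amacrine cells (*Gad1* plus *Gad2* at 2 or more UMIs and above *Slc6a9*, *Ebf3* at 0, and no UMI of the starburst genes *Chat*, *Slc18a3* and *Slc5a7*) had a median of 26345 UMIs.

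The genes of the rule are described here without a test, since they chose the cells. Levels are the lowest, median and highest value over the 7 mice with at least 10 such cells. *Ebf3* stood at 299, 586 and 885 CPM and *Slc6a9* at 156, 328 and 580 CPM. *Pax6* was detected in 143 of 143 cells and stood at 358, 637 and 744 CPM. The AP-2 genes were the weak part of the rule. *Tfap2b* was detected in 100 cells and reached 35.7, 42.2 and 66.7 CPM, whereas its median over 9 mice was 499 CPM in the other glycinergic and 524 CPM in the GABAergic class. *Tfap2a* was detected in 61 cells, at 11.2, 19.2 and 32.6 CPM. A UMI of *Gad1* or *Gad2* was present in 39 cells.

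The other markers given for these cells separated the classes to a different extent. *Esr1* stood at 78.7, 140 and 376 CPM (lowest, median and highest of 7 mice), against 1.93, 6.94 and 15.5 CPM over 9 mice in the other glycinergic cells and 1.92, 6.54 and 9.61 CPM in the GABAergic cells. *Lgr5* stood at 188, 478 and 592 CPM, against 57.0, 177 and 277 CPM in the other glycinergic cells and 9.59, 15.5 and 22.8 CPM in the GABAergic cells. The mice of the Ebf3-positive class did not overlap those of either other class for *Esr1*, whereas for *Lgr5* they overlapped those of the other glycinergic class. By cell, *Esr1* had a UMI in 61 of 143 cells (42.7%), *Lgr5* in 120 (83.9%) and *Ebf1*, a relative of *Ebf3*, in 138 (96.5%). After each cell was thinned to 5000 UMIs, these shares were 34%, 68.8% and 91.5% of 141 cells, against 1.99%, 5.68% and 11.8% of 6597 rods, a cell type that should lack them (median 6673 UMIs before thinning). *Esr1* was thus more frequent than in rods, and was found in a minority of the cells.

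RNA of cell types other than amacrine cells was present in many of the 143 cells. A cell was counted for another type when it held at least 3 of that type's 5 markers, or of 4 markers for horizontal cells. By this count, 76 cells (53.1%) held rod markers, 34 (23.8%) Müller glia markers, 30 (21.0%) bipolar cell markers, 29 (20.3%) ganglion cell markers, 20 (14.0%) cone markers, 7 (4.90%) horizontal cell markers, 4 (2.80%) RPE markers and 2 (1.40%) microglia markers. Rod markers were nearly as frequent in the other glycinergic cells (47.2%) and the GABAergic cells (47.6%). Ganglion cell markers were held by 1.06% and 1.16% of those classes. The summed level of the 5 ganglion markers (*Rbpms*, *Slc17a6*, *Nefl*, *Nefm* and *Pou4f1*) ranged from 132 to 1440 CPM over the mice in the Ebf3-positive cells, from 13.4 to 332 CPM in the other glycinergic cells and from 5.75 to 85.6 CPM in the GABAergic cells. Leaving out the cells with markers of any of these types but rods, a choice made after seeing the data, left 75 of 143 cells, 636 of 943 other glycinergic cells and 1388 of 1806 GABAergic cells. These are called the unmixed cells below, and their low levels of those markers follow from how they were chosen.

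Clustering of the 143 cells gave 5 groups. All variable genes were used to form the groups, so their levels are a description, and the genes named for them were chosen after their values were seen. By fold, the 10 leading genes of the first were those of blood vessel cells, among them *Adgrl4*, *Ptprb* and *Cdh5*, and 1 of its cells carried 620 UMIs of the endothelial gene *Flt1* while no other reached 5. By the share of cells with the gene, the group, of 38 cells (26.6%) from 7 mice, was set apart by *Esr1*, the AP-2 gene *Tfap2c*, *Egfr*, *Spink13*, *Ror1* and the growth factor gene *Igf1*. *Esr1* reached 814 CPM there and had a UMI in 37 of 38 cells, *Tfap2c* reached 104 CPM, *Igf1* 377 CPM and *Lgr5* 1198 CPM. Of its 38 cells, 11 held markers of a non-amacrine type other than rods. Over the 143 cells, 7 had 5 or more UMIs of *Flt1*, *Ptprb*, *Cdh5* or *Cldn5*, and 0 of the 75 unmixed cells had.

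The next group held 35 cells (24.5%) from 7 mice and was set apart by *Them7*, the cadherin gene *Cdh22*, the dopamine receptor gene *Drd2* and *Il1rapl2*. *Them7* reached 479 CPM, *Cdh22* 1170 CPM, *Drd2* 299 CPM and *Il1rapl2* 2048 CPM. No UMI of *Esr1*, *Tfap2c* or *Igf1* was counted in these 35 cells, and *Lgr5* stood at 377 CPM. A further group of 13 cells (9.09%) was set apart by the dynein gene *Dnah11*, the potassium channel subunit gene *Kcnmb2*, *Kcnd3* and the contactin gene *Cntn6*. It came from 3 mice, with 6 cells in control mouse 1, 5 in dKO mouse 6 and 2 in dKO mouse 9. *Lgr5* was at 1587 CPM in it, *Cntn6* at 1690 CPM, *Kcnd3* at 3708 CPM and *Esr1* at 29.4 CPM.

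Among the 86 cells of these 3 groups, *Esr1* and *Them7* were not found together. The groups are set apart by these genes, so this follows in part from the grouping and is a description. Cells of the remaining groups were not counted. At a threshold of 2 UMIs, 39 cells had *Esr1* alone, 31 had *Them7* alone, 16 had neither and 0 had both. *Tfap2c* was found at this threshold in 21 cells, all of which also had *Esr1*. *Lgr5* was found with *Esr1* in 38 of 39 cells and with *Them7* in 30 of 31, so that *Lgr5* did not separate them. *Ebf1* stood at 1423, 2644 and 1602 CPM in the 3 groups and the phosphatase gene *Ptprt* at 2970, 3405 and 1716 CPM, and both were detected in at least 34 cells of each of the larger groups and in 13 of 13 cells of the smallest.

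The remaining 57 cells went against the label of glycinergic amacrine cells in part. A group of 25 cells (17.5%) was led by ganglion cell genes. Its cells had a median of 77198 UMIs, 24 of 25 held ganglion cell markers and 22 held all 5 of them. *Slc17a6*, the vesicular glutamate transporter of ganglion cells, was at 369 CPM there and *Nefl*, a neurofilament gene, at 680 CPM, whereas *Slc6a9* was at 62.4 CPM with a median of 2 UMIs per cell. *Lgr5* was at 15.6 CPM and *Esr1* at 4.59 CPM. The last group, of 32 cells (22.4%), held mixed RNA with a median of 37995 UMIs, and 24 of its cells held markers of a non-amacrine type other than rods. *Rgr*, a gene of RPE and Müller glia, was at 1990 CPM in it, a level that rested on few cells. Of the 32 cells, 9 had a UMI of *Rgr* and 4 had 5 or more. The median was 0 UMIs per cell and the highest count in a cell was 3091 UMIs. Of the 22 cells of dKO mouse 7, 8 were in the ganglion gene group and 11 in the mixed group.

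**Figure D1:**
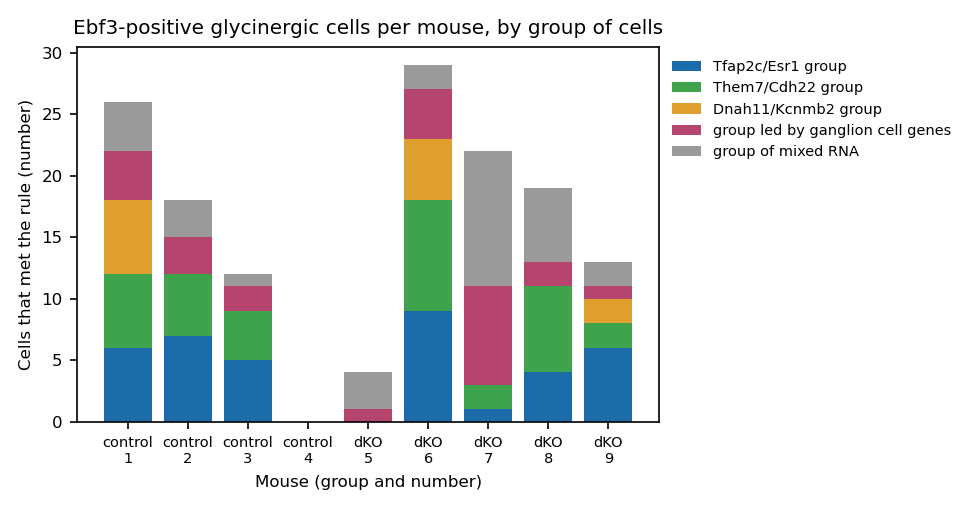
Number of cells that met the rule (vertical axis) in each of 9 mice (horizontal axis), stacked by the 5 groups of cells. Control mouse 4 has 0 cells, dKO mouse 6 has 29, and 19 of the 22 cells of dKO mouse 7 lie in the group led by ganglion cell genes or the group of mixed RNA.

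**Figure D2:**
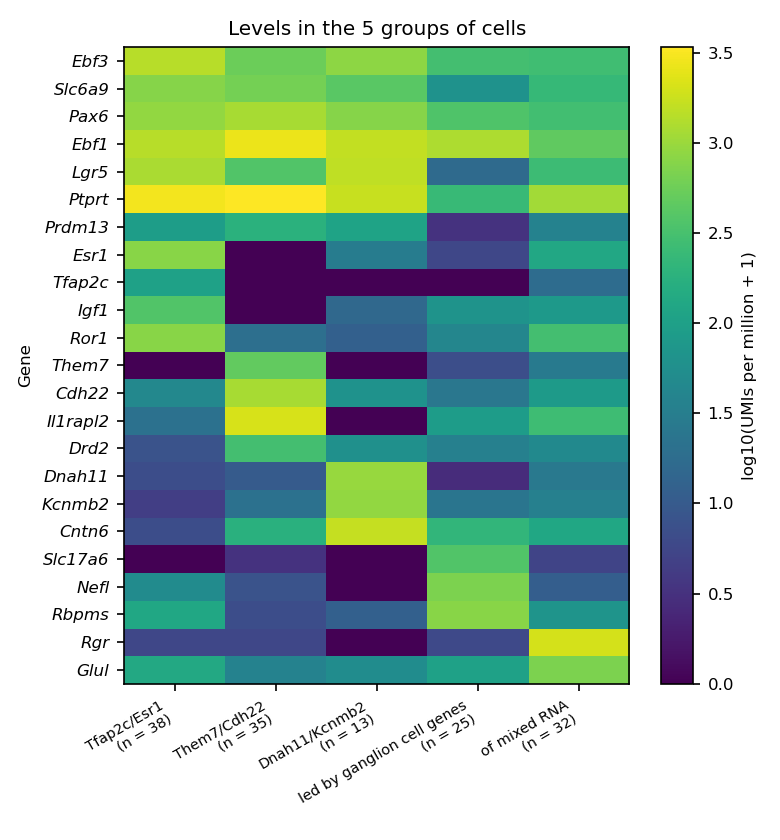
Levels of 23 genes (rows) in the 5 groups of cells (columns), as log10 of CPM plus 1 with all UMIs of a group summed, so that 1 deep cell can weigh heavily. *Esr1*, *Tfap2c* and *Igf1* are bright in the first column and at 0 in the next, *Them7* the other way round, and *Slc17a6* and *Nefl* are bright in the column of 25 cells.

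Cells close to the *Ebf3* threshold were few. Of the cells that passed all conditions but that on *Ebf3*, 47 had 1 UMI of *Ebf3* and lay just outside, 10 had 2 UMIs and lay just inside, 17 had 3 to 5 and 116 had 6 or more. *Esr1* was at 42.6 CPM in the 47 cells with 1 UMI, 16.0 CPM in the 10 cells with 2 UMIs, 25.5 CPM in those with 3 to 5 and 199 CPM in those with 6 or more. *Lgr5* was at 153, 49.9, 129 and 466 CPM in the same order. Of the 10 cells just inside, 8 held markers of a non-amacrine type, and of the 47 just outside, 27 did. On the other conditions, 15 cells had a single *Slc6a9* UMI and 17 exceeded *Gad1* plus *Gad2* by a single UMI.

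*Ebf3* at 2 or more UMIs was more frequent outside the rule than inside it. In all, 1226 cells had it, of which 981 failed the *Pax6*, *Tfap2a* and *Tfap2b* condition and 102 met it but not the *Slc6a9* condition. Ganglion cell markers were held by 368 of the 981 cells and by 70 of the 102 cells. A further set of the 981 had *Slc6a9* above *Gad1* plus *Gad2* and no markers of a non-amacrine type other than rods. It held 336 cells with a median of 15139 UMIs, and 325 of them had *Pax6*. These 325 cells had no UMI of *Tfap2a* or *Tfap2b* by construction, and that alone kept them out of the rule. *Esr1* was at 432 CPM, *Lgr5* at 1310 CPM and *Ebf1* at 1650 CPM in the 336 cells, against 354, 849 and 1820 CPM in the 75 unmixed cells that met the rule. *Them7* was at 14.7 CPM in the 336 cells. Of the 325 cells, 165 had *Esr1*, 107 had *Dnah11* at 2 or more UMIs and 11 had *Them7* at 2 or more UMIs. The rule therefore took 75 of 400 unmixed cells that a condition on *Pax6* alone would take, and few of those it left out had *Them7*.

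The rule also depended on depth. When every cell was thinned to 5000 UMIs, 46 of the 141 deep enough cells still met the condition on *Pax6*, *Tfap2a* and *Tfap2b*. Numbers of Ebf3-positive cells are given below with this in view.

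The comparison of dKO with control mice asked whether deleting both microRNA genes in the RPE went along with a change in these cells. Only the dKO mice had been given tamoxifen, so the drug and the deletion cannot be told apart. The Ebf3-positive cells made up 3.81%, 2.90%, 2.55% and 0% of the amacrine cells of control mice 1 to 4, and 3.57%, 3.83%, 6.85%, 3.03% and 2.53% of those of dKO mice 5 to 9. The value of 0 of 67 amacrine cells in control mouse 4 allows a share of up to 4.48%, and the value of dKO mouse 7 has a 95% interval (exact Clopper-Pearson, counting error only) from 4.34% to 10.2%. The shares overlapped apart from these mice. The mean was 3.96% ± 1.69 (SD, n = 5) in dKO and 2.31% ± 1.63 (SD, n = 4) in control mice, with a difference of 1.65 percentage points (exact two-sided permutation test, p = 0.206, adjusted p = 0.310 over 3 shares). The smallest one-sided p this design allows is 0.00794, and the two-sided test doubles it. Without control mouse 4 the difference was 0.877 percentage points, without dKO mouse 7 it was 0.926, without the 3 libraries that stood apart it was 0.0439, and with dKO mice 6 and 7 summed it was 1.15. As a share of all cells the values were 0.476% ± 0.178 in dKO and 0.367% ± 0.267 in control mice (exact permutation test, p = 0.508). Without control mouse 4 the control mean was 0.489% and the difference turned to -0.0124 percentage points, and without the 3 libraries it was 0.0669. As a share of glycinergic amacrine cells the values were 14.1% ± 3.61 and 8.77% ± 6.23 (exact permutation test, p = 0.159, adjusted p = 0.310), a difference of 5.31 percentage points that was 2.39 without control mouse 4 and 0.0974 without the 3 libraries.

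The broader condition on *Pax6* alone, without markers of other types, took 69, 46, 54 and 6 cells in control mice 1 to 4 and 15, 67, 36, 50 and 57 in dKO mice 5 to 9. Their share of all cells was 1.30% ± 0.421 (SD, n = 5) in dKO and 1.19% ± 0.683 (SD, n = 4) in control mice. The difference was 0.114 percentage points (exact two-sided permutation test, p = 0.810). Without control mouse 4 the control mean was 1.51% and the difference turned to -0.209 percentage points, and without the 3 libraries it was 0.0954. This condition and these alternatives were chosen after seeing the data. A difference in the share of these cells was not detectable between the groups by either condition.

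Expression was next compared with that of the other glycinergic amacrine cells, which share their transmitter. UMIs were summed per mouse and class, so that the 7 mice with at least 10 Ebf3-positive cells were the replicates, and each mouse was compared with itself (edgeR's quasi-likelihood test, Benjamini-Hochberg adjustment). Levels in this and the following comparisons are CPM after scaling of the libraries, and differences are log2 fold changes with their standard errors (SE). With all 143 cells counted, the test covered 11368 genes, and 1477 (13.0%) were called at an adjusted p below 0.05, of which 888 (7.81%) were higher and 589 (5.18%) lower in the Ebf3-positive cells. Over all genes tested, the median log2 fold change was -0.03.

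The genes with the largest increase among all 143 cells were in part those of ganglion cells, which led the group of 25 cells described above. *Slc17a6* was higher by 6.40 (SE 0.477), *Nefl* by 5.04 (SE 0.422), *Thy1* by 4.45 (SE 0.351) and *Rbpms* by 4.37 (SE 0.560). Of the 5 ganglion markers, 4 were tested and 4 were higher. The comparison was therefore repeated with the unmixed cells only, in the same 7 mice with at least 8 cells each. Then 7285 genes were tested and 1473 (20.2%) were called, 780 (10.7%) higher and 693 (9.51%) lower, with a median log2 fold change of 0.01 over all genes. Of the 888 genes higher in all cells, 455 (51.2%) were also higher in the unmixed cells, which is 58.3% of the 780, and 268 were no longer tested. Of the 589 genes lower, 387 (65.7%) were also lower, which is 55.8% of the 693. Values below are those of the unmixed cells, with list counts of all 143 cells beside them.

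**Figure D3:**
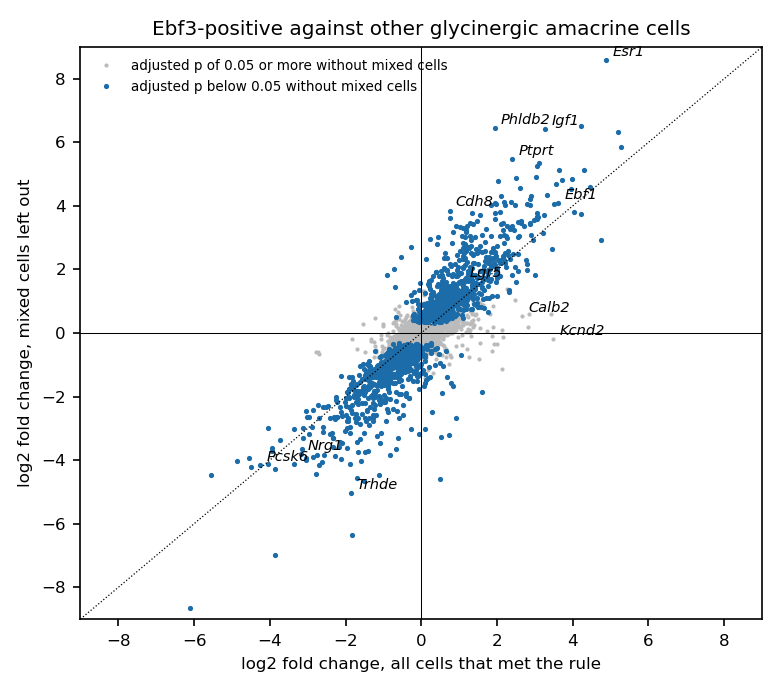
Each point is a gene tested with and without the mixed cells. The horizontal axis gives its log2 fold change between all Ebf3-positive and other glycinergic amacrine cells and the vertical axis that between the unmixed cells of both classes, with the dotted line marking equal values. *Esr1*, *Igf1* and *Ptprt* lie above the line at the right, whereas *Kcnd2* and *Calb2* lie at the right close to 0 on the vertical axis.

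*Esr1* and *Lgr5* were given as markers and are described only. In the unmixed cells *Esr1* stood at 131, 196 and 707 CPM (lowest, median and highest of 7 mice) and at 0, 0.869 and 3.55 CPM in the other glycinergic cells. *Lgr5* stood at 581, 795 and 1133 CPM against 188, 324 and 376 CPM. The classes overlapped for neither gene.

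Several genes with a high level in the Ebf3-positive cells were almost silent in the other glycinergic cells. *Igf1*, the gene of insulin-like growth factor 1, stood at 60.1, 128 and 208 CPM against 0.869, 1.33 and 3.97 CPM, where 18 UMIs were counted in the 636 cells. *Ptprt*, a receptor phosphatase of synapses, stood at 1721, 3037 and 3581 CPM against 29.5, 73.8 and 194 CPM (log2 fold change 5.49, SE 0.283, adjusted p = 7.90e-09). No mouse of one class overlapped the other class for either gene. With all 143 cells the log2 fold change of *Ptprt* was 2.41, also called. *Wnt5a*, which encodes a secreted Wnt protein, was at 74.3 ± 40.6 CPM against 2.82 ± 1.96 CPM. *Phldb2*, *Col15a1*, *Adamts2*, *Lncenc1* and *Exph5* likewise had 8 to 25 UMIs in the 636 cells of the other class. For such genes, which passed the filter on low values through the Ebf3-positive cells, levels are given as a description with no test. The counts and medians of the lists below still include genes of this kind. *Il1rapl2* was at 889 ± 324 CPM against 35.8 ± 23.2 CPM (log2 fold change 4.90).

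Among the genes with the largest decrease, *Nrg1*, which encodes the growth factor neuregulin 1, was at 79.4, 805 and 1984 CPM against 8775, 11010 and 15490 CPM (log2 fold change -3.81, SE 0.372, adjusted p = 2.20e-06). *Trhde*, the gene of an enzyme that degrades thyrotropin-releasing hormone, was at 13.7 ± 11.7 CPM against 531 ± 187 CPM. It is described without a test because the unmixed Ebf3-positive cells held 24 UMIs of it. With all 143 cells its log2 fold change was -1.87. *Pcsk6*, a proprotein convertase gene, was at 44.6 ± 58.9 CPM against 822 ± 182 CPM (log2 fold change -4.15), and *Gfra1*, a receptor subunit gene for glial cell-derived neurotrophic factor, was at 28.0 ± 37.9 CPM against 532 ± 82.1 CPM (-4.11). The 7 mice of one class did not overlap those of the other for these 4 genes.

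The list of genes for glycine supply and release held 4 tested genes in the unmixed cells, of which 1 was lower and 0 higher, with a median log2 fold change of -0.01 (1 lower of 9 and -0.24 with all 143 cells). The gene called was *Slc6a5*, the neuronal glycine transporter GlyT2, at 19.2, 37.3 and 93.0 CPM against 196, 259 and 306 CPM (log2 fold change -2.44, SE 0.252, adjusted p = 3.85e-06). *Slc32a1*, the vesicular transporter that loads both glycine and GABA, was at 45.6 ± 10.8 CPM against 55.9 ± 7.09 CPM and was not called (adjusted p = 0.777).

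Of 15 tested genes for glycine and GABA receptors, 7 were higher and 3 lower, with a median log2 fold change of 0.18 (6 and 4 of 22 and 0.155 with all 143 cells). The glycine receptor subunit gene *Glra4* stood at 44.1, 60.2 and 79.9 CPM against 2.00, 6.08 and 15.6 CPM. It is described without a test because the other class was low. *Glra2* was higher by 0.92 on the log2 scale. *Glra3* was at 142 ± 61.4 CPM against 323 ± 44.9 CPM (log2 fold change -1.06). The glycine receptor subunits thus did not move one way. The GABA-A receptor gene *Gabrb2* (log2 fold change 1.98) was higher, and *Gabra3* (-1.22) and *Gabrg3* (-1.32) were lower.

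Of 18 tested glutamate receptor genes, 9 were higher and 5 lower, with a median log2 fold change of 0.53 (10 and 2 of 21 and 0.91 with all 143 cells). Kainate receptor genes were among those raised. *Grik3* stood at 107, 170 and 332 CPM against 2.00, 4.05 and 16.9 CPM, described without a test because the other class was low. It is among the 9 counted as higher. *Grik1* was at 661 ± 213 CPM against 83.3 ± 61.7 CPM (log2 fold change 3.32). *Gria1*, which encodes an AMPA receptor subunit, was at 115 ± 97.7 CPM against 539 ± 130 CPM (log2 fold change -2.20).

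Transcription factors of amacrine cells held 22 tested genes, of which 9 were higher and 6 lower, with a median log2 fold change of 0.41 (9 and 5 of 28 and 0.47 with all 143 cells). *Ebf1* stood at 1340, 1661 and 2275 CPM against 29.5, 127 and 226 CPM (log2 fold change 4.08, SE 0.278, adjusted p = 9.20e-08). *Tfap2c* stood at 24.0, 34.6 and 96.9 CPM against 0, 0 and 4.31 CPM, with most mice of the other class at 0 and no fold given. The nuclear factor I genes went both ways. *Nfib* was at 277 ± 129 CPM against 42.5 ± 51.2 CPM (log2 fold change 3.32) and *Nfix* at 293 ± 116 CPM against 51.2 ± 15.4 CPM (2.64), whereas *Nfia* stood at 23.1, 96.1 and 331 CPM against 1208, 1508 and 1731 CPM (log2 fold change -3.57, SE 0.377, adjusted p = 4.55e-06). *Neurod2*, a neuronal differentiation factor, was at 8.21 ± 8.96 CPM against 60.5 ± 7.93 CPM, described without a test because the Ebf3-positive class was low.

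Many genes for cell adhesion and lamination encode surface proteins that guide amacrine processes to their layer. They were the list with the most called genes by number, and also the longest list. Of 37 tested, 20 were higher and 5 lower, with a median log2 fold change of 1.0, against 20 and 5 of 39 and a median of 0.81 with all 143 cells. *Dscam* stood at 357, 849 and 1226 CPM against 39.7, 67.3 and 151 CPM (log2 fold change 3.60, SE 0.208, adjusted p = 2.34e-08), and the semaphorin gene *Sema5a* was at 372 ± 150 CPM against 25.5 ± 12.3 CPM (log2 fold change 4.02). The adhesion genes *Dscaml1*, at 1050 ± 256 CPM against 3538 ± 274 CPM, and *Sdk1*, at 629 ± 266 CPM against 2051 ± 385 CPM, were lower (log2 fold change -1.61 for both).

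Of 26 tested voltage-gated channel genes, 9 were higher and 5 lower, with a median log2 fold change of 0.03. With all 143 cells 13 of 31 were higher and 3 lower, with a median of 0.50. The potassium channel gene *Kcnb2* was higher by 3.09 on the log2 scale. *Kcnh1* stood at 37.3, 111 and 167 CPM against 613, 982 and 1174 CPM (log2 fold change -2.95, SE 0.223, adjusted p = 2.40e-07), and *Kcnma1*, the large-conductance calcium-activated channel, at a log2 fold change of -1.84. *Kcnd2* was higher with all 143 cells (log2 fold change 3.48) and not in the unmixed cells (-0.18, adjusted p = 0.870).

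Of 5 markers of AII amacrine cells, the glycinergic cells of the rod pathway, 4 were lower in the unmixed Ebf3-positive cells and 0 were higher (4 and 1 with all 143 cells). The gap junction gene *Gjd2* encodes the connexin of the channels through which AII cells are coupled. It stood at 0, 4.62 and 27.4 CPM against 152, 177 and 257 CPM. *Gjd2* is counted among the 4 but described without a test because the Ebf3-positive class was low. *Prox1* was at 518 ± 99.3 CPM against 858 ± 137 CPM (log2 fold change -0.56). *Calb2*, the calretinin gene, was higher with all 143 cells (log2 fold change 2.67) but not called in the unmixed cells (0.54, adjusted p = 0.252).

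The smaller lists held few called genes. For R-spondin and Wnt reception, leaving out the marker *Lgr5*, 1 of 7 tested genes was higher and 0 were lower. This was *Dkk3*, at 226 ± 95 CPM against 27.5 ± 9.43 CPM (log2 fold change 3.17). For steroid receptors and oestrogen-responsive genes, leaving out the marker *Esr1*, 2 of 9 were higher and 1 lower, with *Igfbp5* (log2 fold change 2.83) and *Fkbp5* (1.36) higher and the orphan receptor gene *Esrrg* (-0.89) lower. Of the stress genes of tissue dissociation, 0 of 4 were higher and 2 were lower (0 of 10 called with all 143 cells). The neuropeptide gene *Cartpt* was higher with all 143 cells (log2 fold change 5.86), and no neuropeptide gene of the list was tested in the unmixed cells. Among the genes the study names, *Trpm3*, the host gene of miR-204, was called. It stood at 645, 863 and 969 CPM against 277, 339 and 460 CPM (log2 fold change 1.48, SE 0.132, adjusted p = 9.48e-07), but was not called with all 143 cells (0.21, adjusted p = 0.894). There it reached 10770 CPM in dKO mouse 9, in whose Ebf3-positive cells the summed RPE markers stood at 9850 CPM. In the group of mixed RNA, 1 cell held 5465 UMIs of *Trpm3*. The part of RPE RNA in the level of dKO mouse 9 was not tested.

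**Figure D4:**
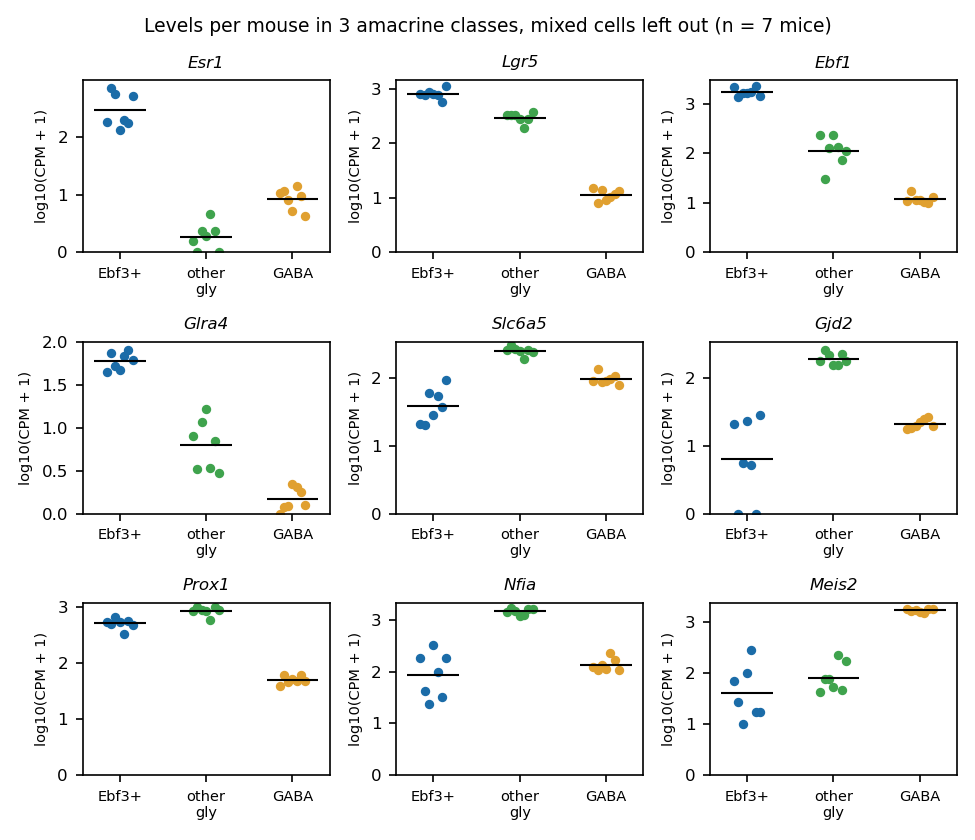
Levels of 9 genes in 7 mice, as log10 of CPM plus 1, in unmixed Ebf3-positive, other glycinergic and GABAergic amacrine cells. Points are mice and lines the mean of the points. *Ebf1* and *Glra4* are highest in the Ebf3-positive cells in every mouse, *Gjd2* and *Nfia* are highest in the other glycinergic cells and *Meis2* in the GABAergic cells.

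Compared with GABAergic amacrine cells in the same way, 11672 genes were tested with all 143 cells and 1824 (15.6%) were called, 915 (7.84%) higher and 909 (7.79%) lower, with a median log2 fold change of 0.00 over all genes. In the unmixed cells 9405 genes were tested and 1955 (20.8%) were called, 839 (8.92%) higher and 1116 (11.9%) lower, with a median of -0.02. Of the 915 genes higher in all cells, 461 (50.4%) were also higher in the unmixed cells, and of the 909 lower, 624 (68.6%) were also lower. These made up 54.9% and 55.9% of the genes called in the unmixed cells. The 5 ganglion markers were higher in 5 of 5 cases with all 143 cells, and the values below are again those of the unmixed cells.

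Transcription factors differed in both directions, with 9 of 28 tested genes higher and 11 lower (median log2 fold change -0.31). With all 143 cells the balance was the other way, with 13 of 31 higher and 10 lower and a median of 0.165. *Ebf1* stood at 1340, 1653 and 2274 CPM against 8.61, 10.2 and 16.0 CPM (log2 fold change 7.46, SE 0.197, adjusted p = 4.81e-14). *Nfix* was at 292 ± 115 CPM against 7.01 ± 1.74 CPM, described without a test because the GABAergic class was low. *Tcf4* was at 1736 ± 268 CPM against 162 ± 34.7 CPM (log2 fold change 3.60) and *Prox1* at 516 ± 99.5 CPM against 49.6 ± 8.00 CPM (3.54). *Meis2* stood at 9.18, 26.9 and 289 CPM against 1543, 1730 and 1857 CPM (log2 fold change -4.62, SE 0.393, adjusted p = 7.69e-08), and *Maf*, counted in few cells, was at 0.782 ± 2.07 CPM against 116 ± 34.8 CPM. *Prox1* was thus above its level in GABAergic cells and below that in the other glycinergic cells, with both differences called. *Lhx9* was not counted in the unmixed Ebf3-positive cells of any of the 7 mice and stood at 57.3 ± 9.98 CPM in GABAergic cells. *Nfia*, which set the glycinergic classes apart, was not called here with all 143 cells (log2 fold change 0.69, adjusted p = 0.243) or in the unmixed cells (-0.11, adjusted p = 0.902).

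*Cacna2d3*, which encodes a calcium channel subunit, stood at 2056, 2333 and 3036 CPM against 28.5, 36.6 and 45.0 CPM (log2 fold change 6.25, SE 0.130, adjusted p = 2.60e-15). *Glra4* was at 59.9 ± 13.9 CPM against 0.524 ± 0.464 CPM. *Prdm13*, a factor needed for amacrine cell fate, was at 140 ± 29.3 CPM against 3.89 ± 1.37 CPM. The glutamate transporter gene *Slc1a3* was at 309 ± 140 CPM against 7.85 ± 2.20 CPM. Both are described without a test because the GABAergic class was low. *Slc1a3* is also 1 of the 5 Müller glia markers, whose summed level in the unmixed cells was 195 to 635 CPM over the mice. *Them7* and *Spink13*, which led different groups among the 143 cells, had 361 and 552 UMIs in the 75 unmixed Ebf3-positive cells. In the 1388 unmixed GABAergic cells they had 87 and 143 UMIs, and no test is given. Described without a test, *Lgr5* stood at 812 ± 166 CPM against 10.5 ± 2.59 CPM and *Esr1* at 354 ± 236 CPM against 8.01 ± 3.52 CPM.

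Among the genes with the largest decrease, *Cemip*, which encodes a hyaluronan-binding protein, stood at 0, 0 and 4.59 CPM against 381, 426 and 459 CPM. *Ptprk*, a receptor phosphatase gene, was at 25.6 ± 24.8 CPM against 1938 ± 184 CPM (log2 fold change -5.97). *Kcnk9*, *Stc1* and *Htr2c* were at 0 in the unmixed Ebf3-positive cells.

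For glycine supply and release, 4 of 4 tested genes were lower in the unmixed cells, against 2 of 8 with all 143 cells (median 0.01). They were *Slc6a5* (-1.06), *Slc32a1* (-0.66) and the amino acid transporters *Slc38a1* (-0.66) and *Slc38a2* (-1.15). *Slc6a5* was therefore lower than in both other classes. Of 20 receptor genes for glycine and GABA, 2 were higher and 8 lower (median -0.24; 2 and 6 of 22 and -0.33 with all 143 cells), with *Gabrg3* at 1.87 and *Gabra2* at -2.70. Of 23 glutamate receptor genes, 5 were higher and 10 lower (median -0.31; 5 and 11 of 24 and -0.44 with all 143 cells), with *Grik3* at 2.31 and *Gria1* at -2.29. Of 39 adhesion genes, 8 were higher and 16 lower (median -0.52; 6 and 13 and -0.40 with all 143 cells), with *Cntn6* at 2.19 and *Tenm3* at -3.62, so that the excess of raised adhesion genes seen against the other glycinergic cells was not seen here. Of 31 channel genes, 5 were higher and 13 lower (median -0.26; 4 and 11 and -0.20 with all 143 cells), with *Kcnmb2* at 3.53 and *Kcnc2* at -3.60. Of the steroid receptor and oestrogen-responsive genes without *Esr1*, 4 of 11 were higher and 1 lower, with *Nr3c1*, the glucocorticoid receptor gene, at 1.33.

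The promoters of called genes were searched for a consensus of EBF factors, TCCC followed by any 2 bases and GGGA, in the window from 250 bases before to 50 bases after the start site. This motif is a palindrome and reads the same on both strands. It was found for 287 of 27025 genes with a promoter sequence (1.06%). Of the genes higher than in the other glycinergic cells, 13 of 591 with a promoter held it (2.20%), against 9 of 534 lower genes (1.69%) and 77 of 5732 tested genes (1.34%). Of the genes higher than in GABAergic cells, 14 of 626 held it (2.24%), against 15 of 821 lower genes (1.83%) and 99 of 7336 tested genes (1.35%). Neither *Ebf3*, *Ebf1*, *Slc6a9* nor *Esr1* and *Lgr5* held it in this window, as far as they had a promoter sequence (0 of 4). The 6 genes that held it and were higher than in both other classes are shown with the match in capitals, since they join the measured difference with the letters that EBF factors are known to bind. The sequences are from RefSeq on build GRCm38.p6, an earlier build than the GRCm39 of the deposited data, and run 5′ to 3′ on the strand of the gene.
Ptprr, chr10:116143823-116143852, plus strand: acctggggcgTCCCCTGGGAtagcacaggc
Plxnb1, chr9:109095266-109095295, plus strand: caaactcggaTCCCGCGGGAccggaatgcg
Sh3rf3, chr10:58813200-58813229, plus strand: cgccccggtcTCCCTGGGGAcctggccggc
Mast4, chr13:103334610-103334639, minus strand: cacccagagcTCCCGCGGGAtcgggtggcc
Tmem108, chr9:103692950-103692979, minus strand: aagaagccaaTCCCCAGGGAaagggctgga
Kif13a, chr13:46929757-46929786, minus strand: cgcgtcgcgcTCCCCCGGGAtggcccgcgc

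Of these genes, *Plxnb1*, a semaphorin receptor gene, differed by log2 fold changes of 1.25 from the other glycinergic and 3.08 from the GABAergic cells, *Sh3rf3* by 0.89 and 1.88, *Mast4* by 1.55 and 0.66, *Ptprr* by 0.51 and 1.33, *Tmem108* by 0.40 and 0.55 and *Kif13a* by 0.40 and 0.37. The matches are a description of letters, and none of the 13 and 12 named genes of the largest increase with a promoter sequence held one (0 in each comparison).

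Within the Ebf3-positive cells, dKO and control mice were compared over 4 dKO mice (6 to 9) and 3 control mice (1 to 3), since control mouse 4 and dKO mouse 5 had under 10 cells. Among 8521 genes, edgeR called 0 (0.0%), and an unadjusted p below 0.05 was given to 458, with 313 of these at a higher level in dKO mice. DESeq2 and limma-voom also called 0 genes, with 423 and 322 at an unadjusted p below 0.05. In the unmixed cells 0 of 4392 genes were called (117 at an unadjusted p below 0.05). Under the broader *Pax6* condition 0 of 8940 genes were called (256 at an unadjusted p below 0.05). That fit held 394 cells of 3 control and 5 dKO mice, since dKO mouse 5 had enough cells there and control mouse 4, with 6, did not. Without dKO mouse 7, or with dKO mice 6 and 7 summed, 0 genes were called as well.

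The 10 genes with the lowest unadjusted p are named as not passing the test (adjusted p = 0.842 for each). *Vwa5a* lay between 2.68 and 5.61 CPM in control mice 1 to 3 and between 13.6 and 22.1 CPM in dKO mice 6 to 9 (log2 fold change 2.13, SE 0.420). *Heg1*, a gene of blood vessel and heart growth, was at 37.9, 73.6 and 32.1 CPM against 243, 167, 104 and 136 CPM (1.75, SE 0.377). *Zfp943*, a zinc finger gene, was at 74.3, 98.1 and 85.7 CPM against 44.5, 44.8, 31.3 and 46.6 CPM (-1.04, SE 0.228). The mice of the groups did not overlap for these 3 genes. They were picked by their low p, so this separation follows in part from the choice and is a description only. *Uaca* had a log2 fold change of 2.03, *Spidr* 1.81, *Chst11* 1.13, *Hip1* 0.97, *Dnmbp* 0.96, *Galc* -1.28 and *Arhgap15* -1.50. In the 394 cells and 8 mice of the broader condition *Spidr* was at -0.26 and *Chst11* at -0.02, the other way, and *Uaca* at 1.79 (unadjusted p = 0.00339, adjusted p = 1). *Heg1* was at 0.655, *Hip1* at 0.249, *Dnmbp* at 0.242, *Galc* at -0.389 and *Arhgap15* at -0.023 there. Each of these 5 kept its direction and was smaller in size than above.

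The marker genes were not called either. *Esr1* was at 139, 378 and 345 CPM in control mice 1 to 3 and at 137, 77.9, 114 and 235 CPM in dKO mice 6 to 9 (log2 fold change -1.02, SE 0.453, adjusted p = 0.842), and the groups overlapped. In the unmixed cells the log2 fold change of *Esr1* was -0.94 (SE 0.513, adjusted p = 0.9996). In the 394 cells of the broader condition it was -0.20 (SE 0.236, adjusted p = 1). *Lgr5* was at 507 ± 39.1 CPM (SD, n = 3) in control and 384 ± 179 CPM (SD, n = 4) in dKO mice (log2 fold change -0.39, adjusted p = 0.877) and *Ebf1* at 1397 ± 189 CPM and 1188 ± 544 CPM (-0.24, adjusted p = 0.916). *Trpm1*, the host gene of miR-211, was at 220 ± 218 CPM and 165 ± 91.2 CPM. Neither the lists of transmitter, receptor, channel and adhesion genes nor the transcription factors held a called gene.

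**Figure D5:**
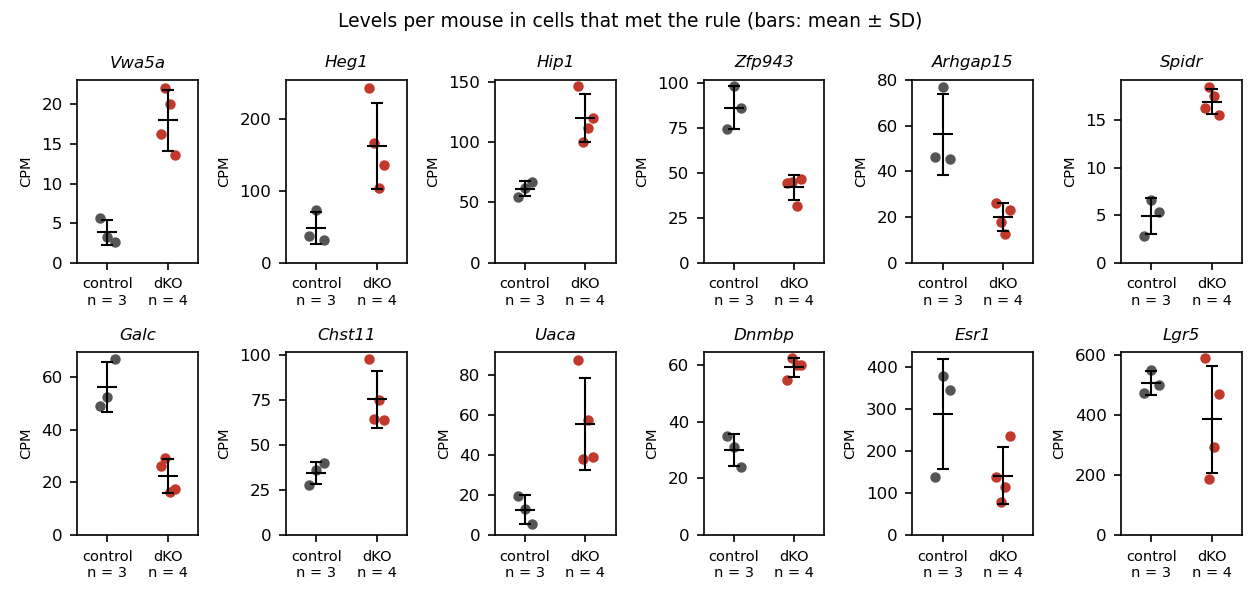
CPM of 12 genes (vertical axes) in the Ebf3-positive cells of 3 control and 4 dKO mice; points are mice and bars the mean ± SD. The first 10 panels are the genes with the lowest unadjusted p, none of which passed the adjusted test. Separate groups in them follow in part from that choice. In the panels of *Esr1* and *Lgr5* the groups overlap.

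RNA of other cell types differed between the mice of this comparison. The summed rod markers ranged from 355 to 545 CPM in control mice and from 203 to 4050 CPM in dKO mice, with the highest value in dKO mouse 7. The summed RPE markers ranged from 14.7 to 211 CPM in control mice and from 6.81 to 9850 CPM in dKO mice, with the highest value in dKO mouse 9. No marker of either list was at 0. In the unmixed cells the RPE markers ranged from 0 to 21.0 CPM in control and from 2.85 to 22.7 CPM in dKO mice, while the rod markers still reached 3720 CPM in dKO mouse 7. The median log2 fold change of the 10 tested stress genes of dissociation was 1.33, with 0 of 10 called, and under the broader *Pax6* condition that of 6 tested genes was -0.38. *Fos* was at 64.0 ± 47.6 CPM in control and 166 ± 94.5 CPM in dKO mice. The part of such RNA in the values above was not tested.

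The dKO effect in the Ebf3-positive cells was also tested against that in the other glycinergic cells of the same mice. Among 13030 genes, edgeR called 0 for this difference (0.0%), and 491 were below 0.05 without adjustment (393 by DESeq2, which also called 0). The lowest unadjusted p belonged to *Siah3*, *Myo1e*, *Jund*, *Dpysl5*, *Zbtb16*, *Lncenc1*, *Rapgef3*, *B3gat2*, *Chst11* and *Arf4*, each with an adjusted p of 1. Without the filter on low counts, edgeR called 2 of 29323 genes, *Rapgef3* and *Myo1e* (adjusted p = 0.00848 for each). Of the 112 UMIs of *Rapgef3* in the Ebf3-positive cells, 0 lay in the unmixed cells, and of the 426 UMIs of *Myo1e*, 42 did. The part of RNA of other cell types in these calls was not tested. With the filter, a dKO effect particular to the Ebf3-positive cells was not detectable with these mice.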

How the data were processed

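Retinas of 9 mice had been dissociated with papain and their cells barcoded with the Parse Evercode kit in 8 sublibraries. Per the methods of the authors, reads were mapped to GRCm39 with split-pipe, UMI counts per gene and cell were made, cells with under 200 genes and genes seen in under 3 cells were removed, and the counts were deposited without normalization. The submitters' processing notes name R 4.2.2 and Seurat 4.3.0. The authors tested cells as replicates, whereas here UMIs were summed per mouse and class and mice were the replicates. No doublet caller was named in the methods or run here. Cells with markers of other cell types were counted, and whether they were doublets was not tested. The matrix was used whole, and no value column was left unmapped (0).

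The Ebf3-positive cells and the gene lists were chosen with earlier results of these data known. Sums of at least 10 cells (8 for unmixed cells) were tested with edgeR 4.0.16 in R 4.3.3 (filterByExpr, TMM scaling, quasi-likelihood test, Benjamini-Hochberg adjustment, threshold 0.05), with the mouse as a block between classes. The pairing by mouse holds because both classes came from the same animals. Alternatives used DESeq2 1.42.0, limma 3.58.1, other filters, scalings and cells, and each mouse left out. The summed UMIs of the Ebf3-positive cells ran from 354931 to 1614374 over the 7 mice tested, which limits genes of low level. Fits were tested on simulated data. Shares were compared by exact two-sided permutation tests (scipy 1.17.1) with exact binomial intervals at 95%, which cover counting error only, and a count of 0 was given the limit of 3 counts. Clustering used scanpy 1.11.5 with 1000 variable genes, 10 components, 10 neighbours and resolution 0.8. Resolution 0.5 also gave 5 groups and 1.2 gave 6.

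Genes named between classes were the 15 with the largest rise and 10 with the largest fall among called genes that moved one way in every mouse and reached 50 CPM in the higher class, of which the text gives a part, and genes of the lists. Between dKO and control mice the 10 lowest p-values were named. Predicted genes were left out. The sources name no strand setting for counting, so overlapping antisense genes may share reads.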

Additional observations from a re-analysis of the deposited data

Results flagged for a closer look

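In 3 genes 1 of the 4 dKO mice lay far from the others in the Ebf3-positive cells, by Dixon's test at the 95% level. Chance flags about 1 in 20 groups. The number of groups screened is not given here, so the 3 flags cannot be set against that rate. *Gldc*, which encodes a glycine-cleaving enzyme, was at 764.5 CPM in dKO mouse 9 and at 7.09 to 92.6 CPM in the other 3. *Trpm3*, the host gene of miR-204, was at 11300 CPM in dKO mouse 9 and at 1138 to 2590 CPM in the others. The summed RPE markers stood at 9850 CPM in the same mouse, and at 11.3 CPM in its unmixed cells. In the group of mixed RNA, 1 cell held 5465 UMIs of *Trpm3*, and the Ebf3-positive cells of dKO mouse 9 held 567736 UMIs in all. A level of a mouse can thus rest on 1 cell, and the part of RPE RNA in both values was not tested. *Zfp943* was at 31.28 CPM in dKO mouse 8 and at 44.5 to 46.6 CPM in the others.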

How the results depend on the processing

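With every cell thinned to 5000 UMIs, 950 genes were called against other glycinergic amacrine cells and 1037 against GABAergic amacrine cells, in place of 1477 and 1824. Requiring an absolute log2 fold change over 1 left 883 and 1071. Leaving out 1 mouse gave 1036 to 1957 and 1416 to 2046 calls, 0 to 0 for dKO against control mice, 0 to 0 for the difference of the dKO effect, and 0.877 to 2.15 percentage points for the share of amacrine cells, which fell to 0.877 without control mouse 4 and 0.926 without dKO mouse 7. Leaving out 1 mouse gave -0.0124 to 0.198 for the share of all cells, 2.39 to 7.28 for that of glycinergic cells and -0.209 to 0.275 under the broader *Pax6* condition. The negative values were those without control mouse 4. The difference of the share of amacrine cells was 0.250 after thinning and 0.738 without mixed cells. Without the filter on low counts, 2 genes were called for the difference of the dKO effect, *Rapgef3* and *Myo1e*. The unmixed Ebf3-positive cells held 0 and 42 UMIs of them. No replicate block between the classes of a mouse gave 1551 and 2381 calls (1531 and 2128 in unmixed cells), and every count with and without the block stayed within 1.5 times of the other. No paired analysis was possible because no label pairs dKO with control mice, whose replicate numbers differ. DESeq2 called 1764 and 2178 genes and scaling by library size 1400 and 1766.

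Signs reversed for 5 values of single genes. In the 394 cells (3 control and 5 dKO mice) of the broader *Pax6* condition the dKO difference was -0.257 for *Spidr* and -0.023 for *Chst11*, and in unmixed cells it was 0.023 for *Lgr5* and 0.043 for *Ebf1*. Against GABAergic cells *Nfia* was at -0.105 in unmixed cells. The cause was not tested, and none of these 5 values was called in either setting. Of the values of single genes under the alternatives, 1031 of 1072 against the other glycinergic and 893 of 906 against the GABAergic cells kept direction and call. The unmixed cells, the *Pax6* condition and leaving out mice for shares other than that of amacrine cells were alternatives chosen after seeing the data. The minimum of 10 cells limits the dKO comparison to 3 control and 4 dKO mice with 12 to 29 cells each.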
